A study of Mus musculus with 8 samples.

Results

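Mast cell granule proteases are the enzymes that mast cells store in their secretory granules and release when they degranulate. They were followed here as a fixed set of 10 genes, chosen by name: Cpa3, Cma1, Mcpt4, Tpsb2, Mcpt1, Mcpt2, Mcpt8, Ctsg, Gzmb and Tpsg1. All 10 were found by symbol among the 56748 Ensembl gene IDs of the count tables, and 9 of them were among the 14942 genes with enough counts to be tested. Mcpt1 was not.

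The cells were bone marrow derived mast cells (BMMCs), which are grown from the bone marrow of C57BL/6 mice in medium with interleukin-3 and were sampled at rest. In the Mettl3-RNP group, labelled Mettl3 KO, cells had been electroporated with ribonucleoproteins (RNPs) of Cas9 and guide RNAs against Mettl3, which encodes the enzyme that methylates adenosine in mRNA at the N6 position. The Pulsed group, labelled Mettl3 WT, had been mock transfected and carried no Cas9 RNP, so an effect of Cas9 cutting and one of losing Mettl3 cannot be told apart. Each group held 4 libraries, numbered 1 to 4, and the 8 samples came from 4 mice. Transfected cells were not selected, so that cells with intact Mettl3 remained in the Mettl3-RNP cultures, and the time between transfection and RNA extraction is not given in the sources used here.

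Granule proteases fall into a few kinds by the peptide bonds they cut. Carboxypeptidase A3 is a zinc enzyme that removes single residues from the end of peptides, chymases are serine proteases that cut after large hydrophobic residues, and tryptases are serine proteases that cut after basic residues. They are made as precursors and trimmed to active enzymes, and many of them are packed in the granule on the negatively charged sugar chains of serglycin. In the mouse, Cpa3, Cma1, Mcpt4 and Tpsb2 are typical of connective tissue mast cells, Mcpt1 and Mcpt2 of mucosal mast cells, and Mcpt8 of basophils, while Ctsg and Gzmb are best known from neutrophils and cytotoxic lymphocytes.

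Libraries held between 32643260 and 45324826 counts. Mettl3 itself was lower in 4 of 4 pairs of same-numbered libraries, at 40.5% of the Pulsed level in the fit (log2 fold change -1.30, SE 0.109, edgeR adjusted p 0.00543). Its exons share 2308 bases with Tox4 on the opposite strand, and whether reads were counted by strand is not given in the sources used here. Of 9 mast cell markers, among them Kit, Fcer1a and Ms4a2, all were tested, and their summed level lay between 19551 and 23129 counts per 1000000 counts of a library (CPM). Neutrophil markers were nearly absent, with Elane, S100a8, S100a9 and Camp at 0 counts in each library and a sum of at most 0.497 CPM over the 9 genes of the list. Of the 7 NK and T cell markers, Gzma and Klrb1c were at 0 counts in each library and the sum was at most 2.22 CPM, with Nkg7 and Cd3e the highest of them. Macrophage markers summed to 7.27 to 35.9 CPM with 1 of the 3 tested genes called lower (1.39% of all tested genes were), Adgre1 (1.18 ± 0.370 against 2.53 ± 0.444 CPM, SD, n = 4; edgeR adjusted p 0.0435). Cd68 went the other way in 3 of 4 pairs without passing, from 3.16 to 6.56 CPM in Pulsed and from 3.71 to 28.3 CPM in Mettl3-RNP libraries (log2 fold change 1.63, SE 0.569, edgeR adjusted p 0.142), and made up most of the highest sum, while Lyz2 had a log2 fold change of 0.02 (SE 0.327). Erythroid markers summed to 1.14 to 2.64 CPM in Mettl3-RNP and 2.73 to 4.997 CPM in Pulsed libraries, mainly Hba-a1 (log2 fold change -0.95, edgeR adjusted p 0.0855), with Hbb-bt next at up to 0.392 CPM. The part of these cells in the results below was not tested. Replicate 3 stood apart in both groups by its immediate early genes, the transcripts induced within minutes of stimulation, which summed to 22412 CPM in Pulsed 3 and 26042 CPM in Mettl3-RNP 3, whereas replicate 4 had 610 and 778 CPM.

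Granule protease transcripts covered 5 orders of magnitude in resting BMMCs. Levels of different genes were compared as CPM per kb of the longest annotated transcript. In Pulsed cells Cpa3 had the highest level, at 20613 ± 5219 CPM per kb (SD, n = 4), and it was the gene with the most counts of all genes in each of the 8 libraries. Cma1 followed at 7356 ± 896 CPM per kb (SD, n = 4) and Tpsb2 at 3312 ± 498 CPM per kb (SD, n = 4). Each of these was above the next gene of the order in 8 of 8 libraries, with ranges in Pulsed cells that did not overlap.

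Gzmb (738 ± 247 CPM per kb, SD, n = 4) and Tpsg1 (509 ± 116 CPM per kb, SD, n = 4) came next and were not apart from each other, since their Pulsed ranges overlapped, although Gzmb was above Tpsg1 in 7 of 8 libraries. Ctsg lay at 52.2 ± 45.8 CPM per kb (SD, n = 4). The remaining genes were low. Mcpt2 was at 5.09 ± 1.88, Mcpt8 at 2.71 ± 1.51 and Mcpt4 at 2.63 ± 1.90 CPM per kb (SD, n = 4), and neighbours among these overlapped in range. Mcpt1 was last, with 0 to 10 counts per library. Its 0 counts in Mettl3-RNP 1 and 4 allow levels of up to 0.0807 and 0.0855 CPM by a limit of 3 counts, which covers counting error only. In Mettl3-RNP cells the order of the mean levels was the same except that Mcpt4 stood above Mcpt8. With the union of all exons as gene length, Mcpt4 and Mcpt8 also changed places in Pulsed cells.

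**Figure D1:**
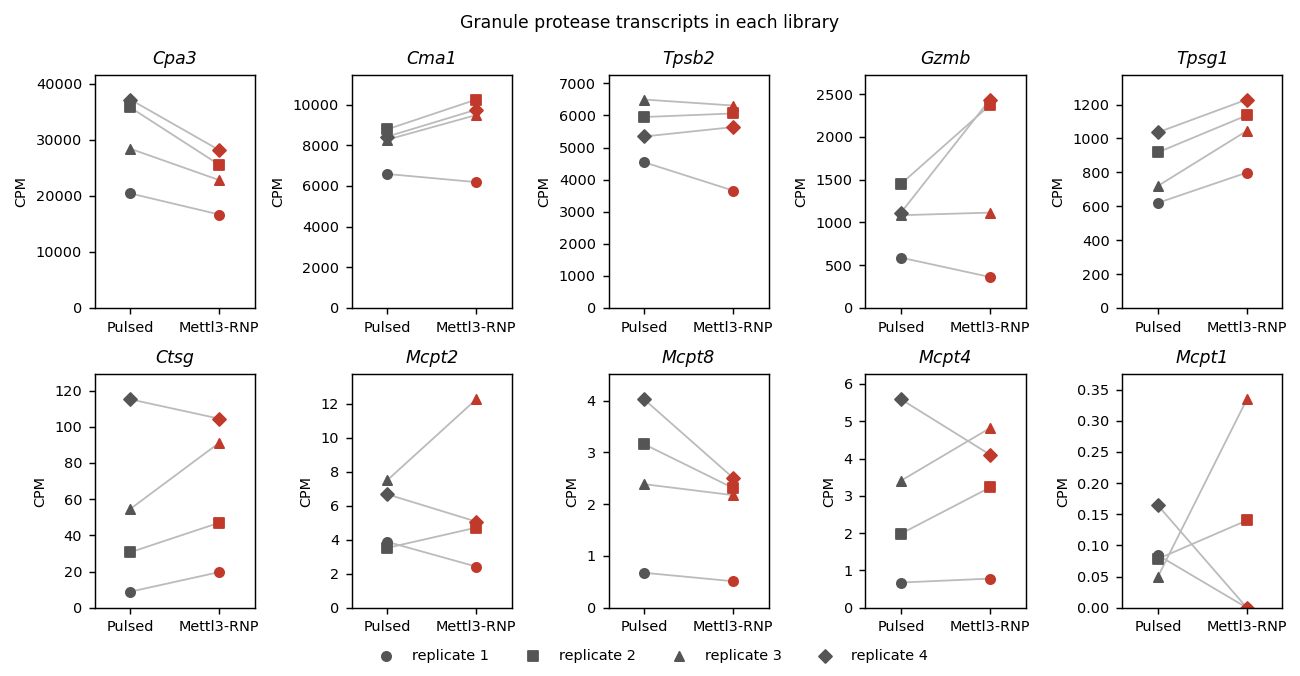
CPM (counts per 1000000 counts of a library, y axes from 0, a scale per panel) of each granule protease in Pulsed and Mettl3-RNP libraries, 1 point per library, with lines joining libraries of the same replicate number and the marker shape giving the number. Cpa3 went down and Tpsg1 up in 4 of 4 pairs, and replicate 1 had the lowest point of both groups for 8 of the 9 tested genes.

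The 10 genes lie in 3 places of the genome (coordinates on GRCm39). Cpa3 (3, from 20269774 to 20296362) has 11 exons and is read from the minus strand of chromosome 3. The tryptase genes Tpsb2 (17, from 25585170 to 25588079) and Tpsg1 (17, from 25588235 to 25593417) are both on the plus strand of chromosome 17, with 155 bases between them. The other 7 genes sit within 321 kb of chromosome 14, in the order Cma1, Mcpt1, Mcpt2, Mcpt4, Mcpt8, Ctsg and Gzmb, each with 5 exons. Mcpt1 (14, from 56255428 to 56257841) and Mcpt2 (14, from 56279498 to 56282099) are on the plus strand, and the other 5 on the minus strand.

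Levels changed steeply along this locus. Only the 10 genes were placed in this order, and other genes between them, such as Cma2, were left out. Cma1 (14, from 56178908 to 56182132) stood at one end, with the second highest level of the 10 genes. Mcpt1, the next of the 10 genes and 73.3 kb away, was the lowest. From Mcpt4 (14, from 56297086 to 56299770) and Mcpt8 (14, from 56319623 to 56322730), both under 6 CPM in each library, levels were higher again at Ctsg (14, from 56337338 to 56340031), 14.6 kb beyond Mcpt8. At the far end, 156 kb beyond Ctsg, was Gzmb (14, from 56496295 to 56499717).

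**Figure D2:**
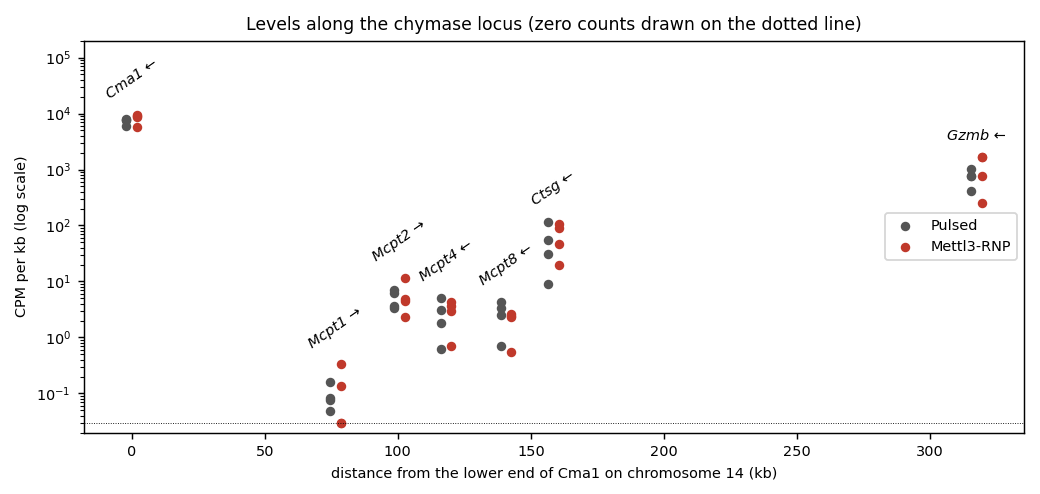
Level in CPM per kb of transcript (log scale) of the 7 granule protease genes of chromosome 14 against their distance in kb from the lower end of Cma1, with 1 point per library, Pulsed in grey and Mettl3-RNP in red, and arrows for the strand. Cma1 and Gzmb at the ends were above 250 CPM per kb in each library, and Mcpt1 stayed under 0.34 CPM per kb; libraries with 0 counts are drawn on the dotted line.

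The 150 bases before the annotated start are shown for genes that differ in level while close in sequence (Mcpt4, Mcpt1), for the most abundant gene of the locus (Cma1), and for the genes that passed the test described below (Cpa3, Tpsg1). They were read from GRCm39 at the starts of the canonical GENCODE transcripts, run 5′ to 3′ on the strand of the gene, and lie at chr3:20296363-20296512 (minus strand) for Cpa3, chr14:56182133-56182282 (minus strand) for Cma1, chr14:56299771-56299920 (minus strand) for Mcpt4, chr14:56255278-56255427 (plus strand) for Mcpt1 and chr17:25589009-25589158 (plus strand) for Tpsg1. The Tpsg1 window lies inside the span of the gene given above, because its canonical transcript starts further in. Capitals mark matches to the binding motif of GATA factors, the transcription factors that mast cells share with basophils and erythroid cells.
Cpa3: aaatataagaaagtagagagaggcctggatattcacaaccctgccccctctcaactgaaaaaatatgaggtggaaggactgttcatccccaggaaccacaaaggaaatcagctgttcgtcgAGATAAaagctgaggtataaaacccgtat
Cma1: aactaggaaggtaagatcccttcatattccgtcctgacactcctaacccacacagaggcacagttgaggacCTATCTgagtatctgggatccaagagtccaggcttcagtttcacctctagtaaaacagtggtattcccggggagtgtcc
Mcpt4: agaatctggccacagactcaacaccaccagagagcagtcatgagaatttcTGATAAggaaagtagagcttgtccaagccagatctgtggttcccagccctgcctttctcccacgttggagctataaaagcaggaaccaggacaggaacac
Mcpt1: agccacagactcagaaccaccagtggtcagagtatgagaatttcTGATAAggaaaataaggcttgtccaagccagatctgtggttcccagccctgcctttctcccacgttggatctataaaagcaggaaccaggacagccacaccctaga
Tpsg1: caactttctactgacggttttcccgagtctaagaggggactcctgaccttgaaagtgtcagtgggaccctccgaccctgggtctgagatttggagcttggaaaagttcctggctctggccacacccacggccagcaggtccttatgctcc

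The letters searched on both strands for GATA factors were AGATAA, its close form AGATAG, the variant TGATAA and likewise the variant TGATAG, and 5 of the 10 granule protease promoters held at least 1 match, namely Cpa3, Cma1, Mcpt4, Mcpt1 and Mcpt2. Of 21757 protein-coding promoters of the same length 14.9% did, and of the 12055 of tested genes 10.4%. The TGATAA of Mcpt4, Mcpt1 and Mcpt2 lay in nearly the same letters, and the end of the Mcpt2 window repeated the start of the Mcpt4 window. These TGATAA matches are therefore not separate cases, although Mcpt2 held another match as well. The E-box forms CACGTG and, with another central base, CATGTG, searched likewise and none of them overlapping a GATA match, were present in Ctsg and Gzmb and in 10.2% of all promoters. The TATA box letters TATAAA, searched on the strand of the gene alone, were present in Cpa3, Mcpt4 and Mcpt1 and in 5.31% of all promoters. Upstream of Mcpt4 the GATA match began 100 bases before the start and the TATAAA 29 bases before it, and upstream of Mcpt1 the same letters began at 106 and 35 bases. The windows of Mcpt4 and Mcpt1 were 83.0% identical in a global alignment, and their coding sequences 86.6%. In Pulsed cells the mean level of Mcpt4 was about 28 times that of Mcpt1, with Mcpt4 above Mcpt1 in 8 of 8 libraries. The size of this fold is uncertain, since Mcpt1 had only 3, 3, 2 and 6 counts in Pulsed 1 to 4.

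Because these genes resemble each other, it was asked how many 50-base words of each canonical transcript, the read length, also occur in transcripts of another gene. No such word was found for Tpsb2, Mcpt1, Mcpt8, Ctsg or Gzmb. For Cma1 (5.38%), Mcpt4 (8.03%) and Mcpt2 (1.58%) a small share was found elsewhere, largely in Gm48934 for Cma1 and in Cma2 for Mcpt4. Gm48934 had at most 31 counts in any library, while Cma2, a neighbouring chymase gene, had 159 to 625 against 24 to 204 for Mcpt4, so that the level of Mcpt4 is uncertain where reads could be split between them. For Cpa3 (7.43%) and Tpsg1 (7.10%) the shared words lay in genes on the opposite strand, the lncRNA Gm31320 and Cacna1h. The level of Gm31320 was not analysed here. Cacna1h reached at most 0.584 CPM, against at least 620 CPM for Tpsg1. GGACT, the most frequent sequence at which Mettl3 methylates, occurred 3 times each in the transcripts of Cpa3 and Gzmb, 1 time each in Mcpt4 and Ctsg, and 0 times in the other 6. Of tested protein-coding genes 93.9% held it at least 1 time. Other sequences that Mettl3 can methylate were not counted, so 0 copies do not show that a transcript lacks sites. Because the protease transcripts are short (836 to 1585 bases), copies were also taken per kb, which gave 2.03 for Cpa3, 2.09 for Gzmb, 1.00 for Ctsg and 0.903 for Mcpt4, against a median of 1.04 over tested protein-coding genes.

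To ask how the granule proteases differ after Mettl3 targeting, all 14942 tested genes were compared with the replicate number as a block. At an adjusted p of 0.05 or less, Cpa3 fell and Tpsg1 rose, 2 of the 9 tested granule proteases, and 3.74% of all tested genes passed (1.39% lower and 2.35% higher). With a fold change of at least 1.5 as well, 0 granule proteases passed in edgeR, against 2.06% of all tested genes. At an unadjusted p under 0.05 there were 3, the other being Ctsg, which is 3 of 9 where 22.5% of all tested genes had such a p. DESeq2 called Cpa3, Tpsg1 and Ctsg at an adjusted p of 0.05 or less, as it did 9.7% of all tested genes, and limma-voom called Cpa3 and Tpsg1, as it did 4.3%. Past the fold change limit as well, DESeq2 placed Ctsg (3.38% of all tested genes) and limma-voom 0 members (2.32% of all tested genes). Cpa3, Mcpt8 and Tpsg1 went the same way in 4 of 4 pairs, as did 31.7% of all tested genes. The median log2 fold change over the 9 genes was 0.14, and over all tested genes -0.001. In no member did the CPM ranges of the groups stay apart, and 3.23% of all tested genes had ranges that did. In bulk RNA, fewer cells of a kind and less RNA per cell cannot be told apart, and this holds for each value below.

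Cpa3 encodes carboxypeptidase A3. It was at 20416, 35744, 28382 and 37159 CPM in Pulsed 1 to 4 and at 16657, 25514, 22784 and 28133 CPM in Mettl3-RNP 1 to 4. The Mettl3-RNP library was the lower of each pair, although the groups overlapped, with replicate 1 lowest and replicate 4 highest in both. The paired log2 differences were -0.29, -0.49, -0.32 and -0.40, and Cpa3 fell to 77.1% of the Pulsed level (log2 fold change -0.37, SE 0.0699, edgeR adjusted p 0.0328). This call depended on the pairs used. It was kept without replicate 1, and without replicate 2, 3 or 4 the log2 fold change was -0.34, -0.40 and -0.35 with adjusted p of 0.159, 0.0710 and 0.109 in edgeR. With only genes of at least 10 counts in every library tested, its edgeR adjusted p was 0.0583 at -0.37 (log2). Fitted without the block, Cpa3 had an edgeR adjusted p of 0.999 at -0.39 (log2).

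The chymase-type genes showed no call. Cma1, mouse mast cell protease 5, was at 6588, 8784, 8276 and 8426 CPM in Pulsed 1 to 4 and at 6188, 10250, 9488 and 9752 CPM in Mettl3-RNP 1 to 4. It was higher with Mettl3 RNPs in pairs 2, 3 and 4 by 0.20 to 0.22 (log2) and lower in pair 1, with a fitted log2 fold change of 0.14 (SE 0.0794, edgeR adjusted p 0.365). Mcpt4, the main chymase of connective tissue mast cells, ranged from 0.675 to 5.59 CPM in Pulsed and from 0.781 to 4.82 CPM in Mettl3-RNP libraries. Replicate 1 was its lowest library in each group. Its log2 fold change was 0.24 (SE 0.229, edgeR adjusted p 0.607), with pair 4 opposite to the other 3, and it was 0.060 without replicate 2, 0.13 without replicate 3 and 0.50 without replicate 4. The mucosal protease Mcpt2 ranged from 3.52 to 7.51 CPM in Pulsed and from 2.42 to 12.3 CPM in Mettl3-RNP libraries, highest in replicate 3 of both groups. Pairs 2 and 3 were higher and pairs 1 and 4 lower (log2 fold change 0.04, SE 0.237, edgeR adjusted p 0.945). Mcpt1 had 3, 3, 2 and 6 counts in Pulsed 1 to 4 and 0, 6, 10 and 0 counts in Mettl3-RNP 1 to 4, which is too few for a comparison.

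Of the tryptases, Tpsb2 encodes mast cell protease 6, which forms tetramers on heparin, and Tpsg1 a tryptase with a membrane anchor. Tpsb2 was at 4543, 5953, 6498 and 5345 CPM in Pulsed 1 to 4 and at 3659, 6064, 6311 and 5638 CPM in Mettl3-RNP 1 to 4. These were close within pairs 2, 3 and 4, and the fitted log2 fold change was -0.06 (SE 0.0836, edgeR adjusted p 0.717), from -0.099 to -0.015 when 1 pair was left out, nearest to 0 without replicate 1. Tpsg1 was at 620, 918, 720.0 and 1036 CPM in Pulsed 1 to 4 and at 799, 1136, 1045 and 1230 CPM in Mettl3-RNP 1 to 4. The Mettl3-RNP library was the higher of each pair, by 0.37, 0.31, 0.54 and 0.25 (log2), and the groups overlapped. In the fit Tpsg1 rose to 129% of the Pulsed level (log2 fold change 0.36, SE 0.0745, edgeR adjusted p 0.0413). It did not keep this call when any 1 pair was left out, with log2 fold changes of 0.33, 0.38, 0.30 and 0.41 and edgeR adjusted p of 0.184, 0.158, 0.0932 and 0.128 without replicates 1 to 4. Fitted without the block, it had an edgeR adjusted p of 0.999 at 0.35 (log2).

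**Figure D3:**
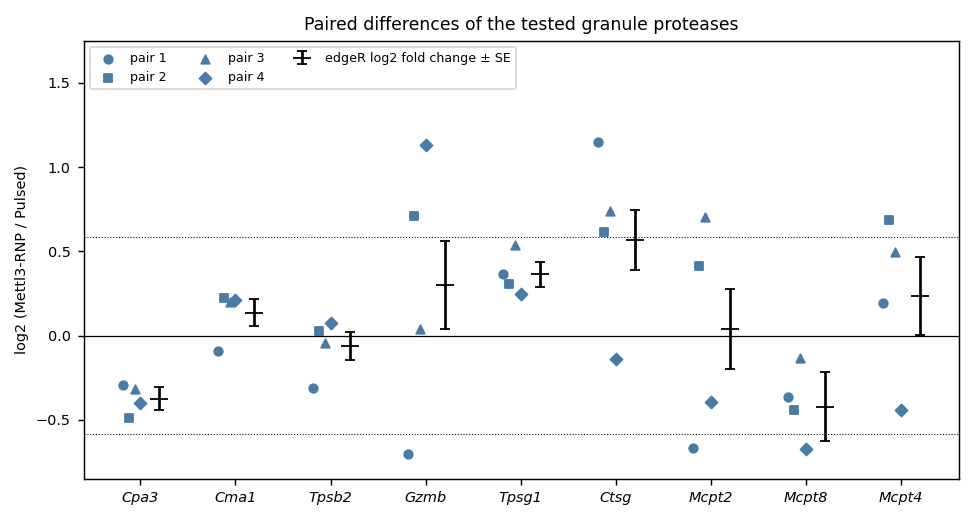
Log2 ratio of Mettl3-RNP to Pulsed CPM in each of the 4 pairs (blue, marker shape for the pair) and the edgeR log2 fold change with its SE (black) for the 9 tested granule proteases, with dotted lines at a fold change of 1.5. The points of Cpa3 lie between -0.49 and -0.29 and those of Tpsg1 between 0.25 and 0.54, while those of Gzmb run from -0.70 to 1.13.

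The other granule proteases varied more between pairs. Ctsg, cathepsin G, was at 8.86, 30.7, 54.6 and 115 CPM in Pulsed 1 to 4 and at 19.7, 47.0, 91.2 and 104 CPM in Mettl3-RNP 1 to 4, so that Pulsed libraries differed 13.0-fold among themselves. It was higher with Mettl3 RNPs in pairs 1 to 3 and lower in pair 4 (log2 fold change 0.57, SE 0.179, edgeR adjusted p 0.114). The value depended on the pairs used: without replicate 1 it was 0.37 (edgeR adjusted p 0.330), and without replicate 4 it was 0.83 and passed (edgeR adjusted p 0.0115). Fitted without the block it was 0.33 (edgeR adjusted p 0.999). DESeq2 gave 0.59 and an adjusted p of 0.00990. Neutrophil genes stored beside cathepsin G in that cell type were at or near 0, with Elane at 0 counts, Prtn3 at up to 0.131 CPM, Prss57 at up to 0.607 CPM and Mpo at up to 0.201 CPM.

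Gzmb, granzyme B, was at 588, 1450, 1084 and 1115 CPM in Pulsed 1 to 4 and at 362, 2372, 1114 and 2436 CPM in Mettl3-RNP 1 to 4. It was clearly higher with Mettl3 RNPs in pairs 2 and 4, nearly level in pair 3 and lower in pair 1 (log2 differences -0.70, 0.71, 0.04 and 1.13). The fitted log2 fold change was 0.30 (SE 0.261, edgeR adjusted p 0.560), and it was 0.59 without replicate 1, 0.15 without replicate 2 and 0.029 without replicate 4, uncalled each time. Prf1, whose product perforin delivers granzymes in lymphocytes, had at most 2 counts in a library, and Gzma had 0.

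Mcpt8, the basophil protease, was at 0.675, 3.16, 2.39 and 4.03 CPM in Pulsed 1 to 4 and at 0.511, 2.31, 2.17 and 2.51 CPM in Mettl3-RNP 1 to 4. Although lower in 4 of 4 pairs, it did not pass (log2 fold change -0.42, SE 0.202, edgeR adjusted p 0.267). Of 6 basophil markers, 5 were tested and 2 fell (1.39% of all tested genes did), Il18rap (log2 fold change -0.79, edgeR adjusted p 0.0324), a subunit of the IL-18 receptor, and Ifitm1 (-0.60, edgeR adjusted p 0.0471), a membrane protein. Of the 5 tested genes of that list 4 had a log2 fold change below 0, with a median of -0.68 over the 5, while Cd200r3 was higher in 4 of 4 pairs (0.25, edgeR adjusted p 0.151). The basophil protease Prss34, whose log2 fold change was that median (edgeR adjusted p 0.299), reached at most 1.74 CPM and Cebpa at most 0.348 CPM. The list summed to 2243 to 3321 CPM in Pulsed and 1792 to 2418 CPM in Mettl3-RNP libraries. Nearly all of this was Ifitm1 and Cd200r3, with means of 2098 and 572 CPM in Pulsed libraries. The part of the list in the level of Mcpt8 was not tested.

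The replicate number accounted for most of the spread of each of these genes. Of the sum of squares of log2 CPM over the 8 libraries, the 4 replicate numbers held from 64.8% (Tpsg1) to 94.7% (Mcpt4), where the median of all tested genes was 78.3%. The 2 groups held 26.1% for Cpa3, 32.3% for Tpsg1 and at most 7.59% for the other 7, against a median of 5.68% over all tested genes. In 8 of the 9 tested genes, all but Mcpt2, replicate 1 was the lowest of both groups, which held for 18.5% of all tested genes. The gap was wide for Mcpt4, Mcpt8 and Ctsg, whose highest Pulsed library exceeded Pulsed 1 by 8.28-fold, 5.96-fold and 13.0-fold, and narrow for Cma1 at 1.33-fold and Tpsb2 at 1.43-fold. Immediate early genes, led by Egr1 and Junb, which set replicates 3 and 4 apart, did not follow this order, and their part in the levels of the proteases was not tested.

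Taken as a share of all counts, the 10 genes made up 3.43%, 5.22%, 4.00% and 5.52% of Pulsed 1 to 4 and 2.91%, 4.70%, 3.74% and 4.93% of Mettl3-RNP 1 to 4. The share was lower in 4 of 4 pairs, with a mean difference of -0.47 ± 0.148 percentage points (SD, n = 4 pairs). Cpa3 carried this. Without it, the other 9 genes held 1.53% ± 0.185 (SD, n = 4) of the counts in Pulsed and 1.72% ± 0.412 (SD, n = 4) in Mettl3-RNP libraries and were higher in 3 of 4 pairs. Cpa3 made up 65.7% ± 3.62 (SD, n = 4) of the protease counts in Pulsed and 57.9% ± 2.23 (SD, n = 4) in Mettl3-RNP cells, Cma1 17.7% ± 1.91 and 22.2% ± 1.11 (SD, n = 4).

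**Figure D4:**
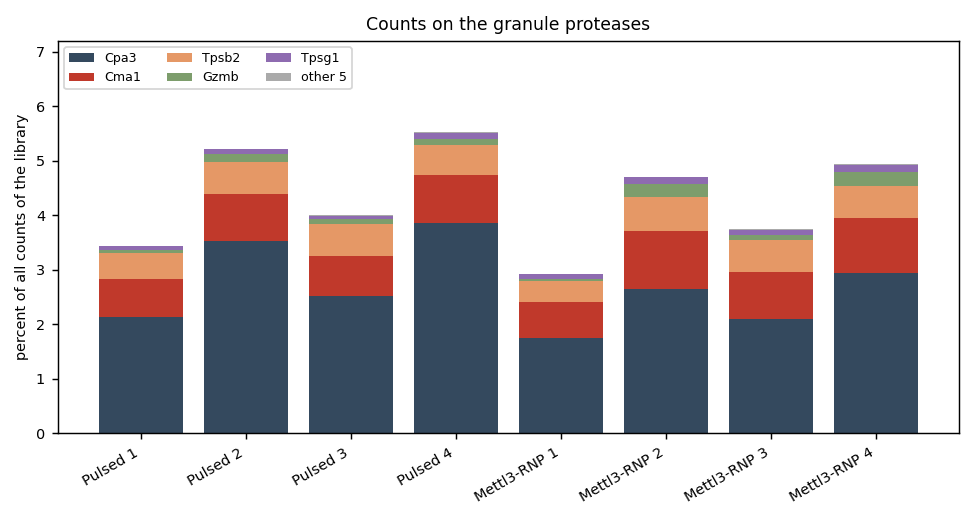
Percent of all counts of each library (y axis from 0) that fell on the granule proteases, stacked by gene, for Pulsed 1 to 4 and Mettl3-RNP 1 to 4. Cpa3 is the largest layer of each bar, and the bars run from 2.91% in Mettl3-RNP 1 to 5.52% in Pulsed 4.

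Ratios of the proteases within a library do not depend on how libraries are scaled, and 4 were formed after the values had been seen. The ratio of Cpa3 to Cma1 (CPM per kb) was 2.29, 3.01, 2.53 and 3.26 in Pulsed 1 to 4 and 1.99, 1.84, 1.77 and 2.13 in Mettl3-RNP 1 to 4. All Mettl3-RNP libraries lay below all Pulsed libraries, with a mean log2 difference of -0.51 ± 0.22 (SD, n = 4 pairs). Of all tested genes set against Cma1 in this way, 1.97% had groups that did not overlap, and Cpa3 was the 1 granule protease among them. The ratio of Cpa3 to Tpsb2 was lower in pairs 2 to 4 and level in pair 1 (mean log2 difference -0.31 ± 0.24, SD, n = 4 pairs), with overlapping groups. Between the neighbouring tryptase genes, the ratio of Tpsg1 to Tpsb2 was higher in 4 of 4 pairs, by 0.43 ± 0.24 (log2, SD, n = 4 pairs), from 0.115 to 0.202 in Pulsed and from 0.173 to 0.227 in Mettl3-RNP libraries. The ratio of Cma1 to Tpsb2 was higher in 4 of 4 pairs by 0.20 ± 0.046 (log2, SD, n = 4 pairs), again with overlapping groups.

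**Figure D5:**
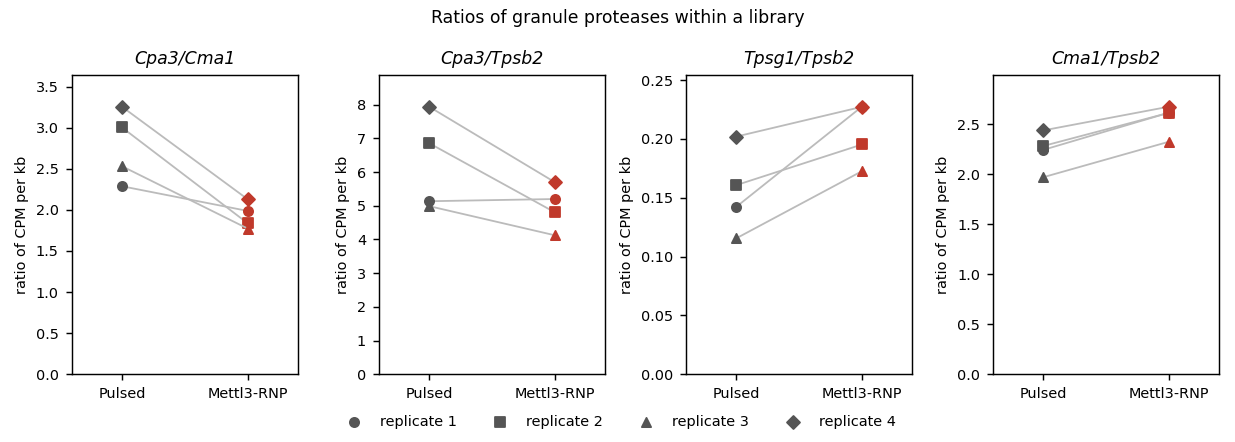
Ratio of the CPM per kb of pairs of granule proteases within each library (y axes from 0), with lines joining libraries of the same replicate number. For Cpa3 to Cma1 the Mettl3-RNP points (1.77 to 2.13) all lie below the Pulsed points (2.29 to 3.26).

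Other genes of the protease system were read from fixed lists. Of 14 further genes related to the tryptase and chymase genes, granzymes among them, 12 were too low to be tested, and Prss34 and Gzmc did not pass (edgeR adjusted p 0.299 and 0.805). They included Tpsab1, the gene of mast cell protease 7, which C57BL/6 mice are known not to make, with at most 9 counts. The chymase gene Cma2, which was not on this list, was at 4.28 to 17.1 CPM and did not pass (log2 fold change 0.02, edgeR adjusted p 0.938). Of 9 genes for storage and activation 0 passed in edgeR, with 2 at an unadjusted p under 0.05, 1 called by DESeq2 and 0 by limma-voom, where all tested genes gave shares of 22.5%, 9.7% and 4.3%. The granule proteoglycan Srgn (log2 fold change 0.01, SE 0.0765) and Ctsc, whose product removes the activation peptide of these serine proteases (0.03, SE 0.0775), differed by less than their standard error. Slc18a2, the transporter that loads amines into the granule, was lower in 4 of 4 pairs without passing (-0.31, SE 0.0841, edgeR adjusted p 0.0812).

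Of 14 protease inhibitors, 12 were tested and 1 passed, against 3.74% of all tested genes. This was Cst7, which encodes cystatin F, an inhibitor of cathepsin C and related cysteine proteases, and it fell, with 4 of 4 pairs lower (log2 fold change -0.31, SE 0.0652, edgeR adjusted p 0.0457). Serpinb1a, an inhibitor of chymase-like and elastase-like proteases, was abundant, at 1278 to 2141 CPM in Mettl3-RNP and 1307 to 2624 CPM in Pulsed libraries, and did not pass (-0.16, edgeR adjusted p 0.235). Of 13 genes of cathepsins and related lysosomal proteases, 10 were tested and 2 rose, Ctsd and Ctsb, where 2.35% of all tested genes rose. The lysosomal aspartic protease Ctsd was at 1077, 1081, 1041 and 1164 CPM in Pulsed 1 to 4 and at 1205, 2007, 1830 and 2001 CPM in Mettl3-RNP 1 to 4, without overlap (log2 fold change 0.66, SE 0.123, edgeR adjusted p 0.0326). Ctsb, a lysosomal cysteine protease, had 185 ± 10.9 CPM in Pulsed and 237 ± 11.3 CPM in Mettl3-RNP libraries (SD, n = 4), again without overlap (0.36, SE 0.0750, edgeR adjusted p 0.0465).

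Of 13 transcription factors tied to mast cell protease genes, 12 were tested and 1 passed in edgeR, with 5 at an unadjusted p under 0.05, 4 called by DESeq2 and 1 by limma-voom, where all tested genes gave shares of 3.74%, 22.5%, 9.7% and 4.3%. Runx1, a factor of the blood lineages, rose in the fit by 0.34 (log2), with 647 ± 49.4 CPM in Pulsed and 823 ± 92.9 CPM in Mettl3-RNP libraries (SD, n = 4; edgeR adjusted p 0.0448). Gata2, which mast cells need for their identity, had a log2 fold change of 0.13 (edgeR adjusted p 0.457), Mitf, a factor that binds E-boxes, of 0.30 (0.0709) and Gata1 of -0.01 (0.936). The median over the 12 tested factors was 0.14. Of the mast cell markers 0 of 9 passed in edgeR, with 3 at an unadjusted p under 0.05 (22.5% of all tested genes), 2 called by DESeq2 (9.7%) and 0 by limma-voom (4.3%). The most abundant of them were Il1rl1, the receptor for IL-33, higher in 4 of 4 pairs without passing (0.24, edgeR adjusted p 0.117), and Kit, the receptor for stem cell factor (0.08, edgeR adjusted p 0.626).

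Genes with the most similar pattern over the 8 libraries were sought among 10729 other protein-coding genes averaging 1 CPM or more, by the root mean square difference of log2 CPM after centring each gene. Such a likeness is a description, and libraries of the same replicate number share a source in it. Closest to Cpa3 were Vars1 (0.094), Mrpl42 (0.11) and Tars1 (0.11), where the median candidate was at 0.50. Vars1 and Tars1 encode tRNA synthetases for valine and threonine, and Mrpl42 a mitochondrial ribosomal protein. Tpsb2 was closest to Rrp8 (0.037), Rai14 (0.051) and the granule proteoglycan gene Srgn (0.066), with a median of 0.41. Cma1 was closest to Tomm7 (0.068), Uqcr11 (0.077) and Obi1 (0.089), and Tpsg1 to Adk (0.079), Smco4 (0.10) and Pgap2 (0.10).

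The more variable genes had looser matches. For Gzmb they were Ebi3 (0.22), a subunit of the cytokines IL-27 and IL-35, Ckap4 (0.36) and Rassf8 (0.36). Ctsg was closest to the integrin subunit gene Itgb6 (0.25), Slc9a9 (0.40) and Trip13 (0.41), and Mcpt4 to Trip13 (0.22), Suv39h2 (0.25) and Itgb6 (0.25), so that these proteases shared 2 of their 3 nearest genes. The nearest genes of Mcpt8 were Pclaf (0.21), Bhlhb9 (0.27) and Nup210 (0.27), and those of Mcpt2 were Orc6 (0.23), Mtbp (0.25) and Chchd10 (0.28).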

How the data were processed

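Poly-A RNA of 8 BMMC samples was sequenced with paired-end reads. According to the submitters' processing notes and the study's methods, the authors aligned reads with HISAT2 2.2.1 to GRCm39 and counted them per gene with featureCounts 2.0.1. The deposited values are raw counts, 1 table per library. Strand and multimapping settings are not given in the sources used here. A batch correction after counting is described, but the whole-number counts show none.

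Names, positions, transcripts and promoter starts were taken from GENCODE (mouse, release 39, GRCm39), where 56017 of 56748 IDs were found (98.7%). Genes were kept by filterByExpr of edgeR 4.0.16 (minimum count 10), scaled by TMM and tested with the quasi-likelihood test (glmQLFit, glmQLFTest, R 4.3.3) with the replicate number as a block. P-values were adjusted by Benjamini-Hochberg over all tested genes. CPM used TMM library sizes, and log2 CPM for paired differences a prior count of 2. SEs were derived from the test statistic. Depth ranged from 32643260 to 45324826 counts, and limits from counts cover counting error only, as no molecular identifiers separate PCR copies.

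The 8 samples came from 4 mice by the series text, and since each group is numbered 1 to 4, a number was taken as a mouse, which is an inference. After subtracting group means, libraries of 1 number correlated at 0.825, 0.489, 0.879 and 0.765 over 11985 genes averaging 1 CPM or more, against at most 0.183 between different numbers. Over all 14942 tested genes the values were 0.534, 0.0738, 0.735 and 0.580, against at most 0.249, so that pair 2 did not stand out there. Between any libraries of a group, chi-square over its degrees of freedom was 58.3 or more, above sampling noise, so none was treated as a repeat deposit of another. This does not show that they are biological replicates.

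Alternatives were no block, other scalings and filters, DESeq2 1.42.0, limma-voom (limma 3.58.1), leaving out each pair, and another gene length. Fits were tested on simulated data. The proteases and gene lists were chosen with earlier results of these data known. The text names the 10 proteases, Mettl3, genes of the lists with an adjusted p of 0.05 or less or, in a list with none, its 2 most abundant genes, and the 3 most similar genes of each protease. Further list genes, with their values, were named after these had been seen.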

Additional observations from a re-analysis of the deposited data

Results flagged for a closer look

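In 22 groups of 4 libraries, made of the CPM of the 10 genes and their share of all counts in each group, 1 held a library far from the other 3, where chance gives about 1.1. This was Mcpt8 in Mettl3-RNP 1, at 0.511 CPM (19 counts), while the next lowest library of the group was at 2.17 CPM. In Pulsed 1 the gene was at 0.675 CPM, also the lowest of its group.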

How the results depend on the processing

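The count of granule proteases at an adjusted p of 0.05 or less (2) was 0 with no replicate block, 1 with at least 10 counts in every library, 3 both with every gene that had a count and in the DESeq2 Wald test (Ctsg added), and ranged from 0 to 1 when 1 pair was left out. The count past a fold change of 1.5 as well (0) was 1 with every gene that had a count, 1 in the DESeq2 Wald test, and from 0 to 1 when 1 pair was left out, Ctsg each time it was 1. Over all genes, 308 passed both limits, against 0 with no replicate block (579 at an unadjusted p under 0.05), 579 with every gene that had a count, 505 in DESeq2, and 26 to 331 when 1 pair was left out, where leaving out pair 2 gave the lowest. Cpa3 had an edgeR adjusted p of 0.0583 where 10 counts were asked of every library. Over 11 alternatives the log2 fold change of Cpa3 ran from -0.44 to -0.34 and that of Tpsg1 from 0.30 to 0.41, and each kept its call in 6. Mcpt2 (0.04) ran from -0.21 to 0.22 when 1 pair was left out, at -0.098 and -0.21 without replicates 2 and 3, uncalled throughout, and the other 8 genes kept their direction. The difference in the share of counts (-0.470 points) was -0.624 without the 100 most abundant other genes and -0.541 to -0.430 when 1 pair was left out. With the union of exons as length, 8 of 10 genes kept their rank. The causes were not tested. Depth limits the low genes, Mcpt1, Mcpt2, Mcpt4 and Mcpt8, most.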
